A study of Homo sapiens with 4 samples.

Results

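The replication-dependent histone genes of HCC1937 cells were taken as every line of the expression table whose symbol names an H1, H2A, H2B, H3 or H4 gene of the main histone clusters (H1-1 to H1-6, and the H2AC, H2BC, H3C and H4C series). This rule gave 66 genes of the 59533 analysed. HCC1937 is a human breast cancer line that the labels give as p53-/-, and the cells used had been infected to express the p53 mutant p53-R282W. Expression was measured by RNA sequencing in 1 library of cells that carried p53-R282W and received 0.3 µM decitabine (DAC) for 5 days and in 1 library of untreated cells that carried the same mutant. DAC is a deoxycytidine analogue that is built into DNA and traps DNA methyltransferases. The study also had a treated and an untreated library of THP-1 leukaemia cells, but 0 of the 66 genes have a value in those columns, so the THP-1 libraries do not enter here. No library without the transgene was used, and each group is 1 library. There is therefore no spread between replicates, no p-value is given, and every difference describes this pair of cultures. Because these are bulk samples, a different share of cells in S phase and a different amount of histone mRNA per cell cannot be told apart.

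Replication-dependent histones package newly made DNA and are produced mainly in S phase. Core histones H2A, H2B, H3 and H4 form the nucleosome, and H1 binds the linker DNA between nucleosomes. Their genes lie in clusters, mostly lack introns, and give mRNAs that usually end in a short stem-loop bound by SLBP and cut by a complex with the U7 small nuclear RNA, in place of a poly(A) tail. Some of these genes can also give longer, polyadenylated mRNAs that run past the stem-loop. The libraries were made from purified mRNA, per the labels' protocols, so the values are of the histone mRNA that passed that step, and what share this was is not known.

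A stem-loop of 6 paired and 4 loop positions was found in an annotated GENCODE 29 transcript of 26 of the 62 members present in that annotation. It was not found in the annotated transcripts of the other 36. For many of these the annotated exons are shorter than the RefSeq gene, as in H1-2 (642 against 731 bases) and H4C12 (312 against 387). A stem-loop past the annotated end could not be found, so the search does not show that these genes lack one. The sequences are shown because they mark the usual end of these mRNAs, with the loop in capitals, 5′ to 3′, on GRCh38.
H2BC8 (chr6:26216218-26216233, minus strand): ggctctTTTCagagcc
H2BC4 (chr6:26123472-26123487, minus strand): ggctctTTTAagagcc
H4C8 (chr6:26285131-26285146, minus strand): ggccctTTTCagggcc
H4C9 (chr6:27139654-27139669, plus strand): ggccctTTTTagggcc
H2AC11 (chr6:27133515-27133530, plus strand): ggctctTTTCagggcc
H3C6 (chr6:26225596-26225611, plus strand): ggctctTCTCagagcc
The form of H2BC8 was the commonest, in 13 of the 26 members. Relative to it, with positions counted from 1 at the 5′ end, the form of H2BC4 has C10A and is shared by 4 members, that of H4C8 has T4C and A13G and is shared by 4, and that of H4C9 has T4C, C10T and A13G and is shared by 3. H2AC11 has A13G and H3C6 has T8C, each alone. In 20 of the 26, an annotated transcript runs at least 100 bases past the stem-loop, up to 1862 bases in H3C6, and in 15 of these 20 a poly(A) signal, either AATAAA or its common variant ATTAAA, lies in the last 40 bases of that transcript.

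The 150 bases before the start of 4 members with large differences or high levels are shown with each match to 4 motifs in capitals on either strand, namely the CCAAT box, the TATA box searched as TATAAA, the octamer ATTTGCAT known from H2B promoters, and the H1 box AAACACA (RefSeq, GRCh38.p14).
H1-2 (chr6:26056471-26056620, minus strand): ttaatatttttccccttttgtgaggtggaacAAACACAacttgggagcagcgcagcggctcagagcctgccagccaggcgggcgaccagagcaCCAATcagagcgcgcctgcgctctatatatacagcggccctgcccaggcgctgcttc
H2BC12 (chr6:27146859-27147008, minus strand): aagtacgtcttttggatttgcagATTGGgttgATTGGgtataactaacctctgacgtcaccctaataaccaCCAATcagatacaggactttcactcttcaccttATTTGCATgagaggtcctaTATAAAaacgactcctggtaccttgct
H2BC11 (chr6:27132796-27132945, minus strand): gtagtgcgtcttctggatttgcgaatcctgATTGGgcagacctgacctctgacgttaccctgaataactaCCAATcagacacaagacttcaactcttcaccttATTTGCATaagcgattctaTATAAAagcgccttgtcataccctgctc
H4C8 (chr6:26285535-26285684, minus strand): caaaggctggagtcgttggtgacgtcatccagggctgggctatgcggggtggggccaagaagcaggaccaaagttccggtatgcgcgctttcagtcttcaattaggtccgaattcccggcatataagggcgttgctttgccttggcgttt
The octamer ATTTGCAT was found in 14 of 17 H2B promoters, in 20 of all 61 member promoters in the table, and in 0.985% of all 27305 promoters. AAACACA was found in 5 of 6 H1 promoters, in 5 of 61 members, and in 2.77% of all promoters. CCAAT was found in 52 of 61 members, among them all 6 H1, 15 H2A, 17 H2B and 11 H3 promoters but 3 of 12 H4 promoters, against 24.4% of all promoters. TATAAA was found in 35 of 61 members, against 7.05% of all. A CG dinucleotide, the site that DNA methyltransferases modify, occurred a median of 6 times in these 150 bases over the members, against 7 over all promoters, with 10 in H1 and H4, 6 in H2A, 4 in H2B and 3 in H3. Methylation was not measured. The H4C8 window holds none of the 4 motifs and the H2BC12 window holds all but the H1 box, and both genes were at least 2-fold higher with DAC as deposited. H2AC12, H3C11, H3C12, H4C1 and H4C3 have no entry in the promoter table. H3C4 and H2AC7 have the same window (chr6:26199294-26199443), which is counted once as an H3 and once as an H2A promoter. The H4C15 window (chr1:149861160-149861309, minus strand) overlaps the RefSeq gene, which reaches 149861240.

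Histone mRNA was higher in the DAC library over most members. Values are FPKM, a read count scaled by exon length and by the counted reads of the library. Of the 66 genes, 47 had a higher value with DAC, 11 a lower one, and 8 were listed at 0 in both libraries. Among all 28075 genes above 0 in at least 1 library, 68.8% had a higher value with DAC. Summed over the 66 genes, the level was 708.9 FPKM in the DAC library and 283.9 FPKM in the untreated library, a ratio of 2.50. Without H2BC12, the highest member, the other 65 genes made up 55.4% of the sum with DAC and 51.6% of it untreated, at a ratio of 2.68.

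A gene was kept when at least 1 library reached 1 FPKM, and called when it differed by at least 2-fold on log2(FPKM + 1). The added 1 makes a difference between low values smaller than the plain ratio, and unless a ratio is named, 2-fold here means this scale. Of the 66 genes 35 were kept, 19 were at least 2-fold higher with DAC and 1 was at least 2-fold lower. Over all 14058 genes kept, 10.3% were at least 2-fold higher and 1.44% at least 2-fold lower. Of the 35, 11 passed through the DAC library alone, which fixes their direction, and 2 passed through the untreated library alone. Of the 24 members at 1 FPKM or more untreated, 15 were at least 2-fold higher and 1 lower, with a median log2 difference of 1.06. Over all 11909 genes at that untreated level, 3.87% were at least 2-fold higher and 1.7% lower, and the median log2 difference was 0.10. Over all kept protein-coding genes 8.07% were at least 2-fold higher and 0.755% lower. Many histone genes are short, so other short genes were set beside them. Of 187 kept protein-coding genes with less than 1000 bases of exon that are no members, 38.0% were at least 2-fold higher and 4.28% lower, and 75 of them were kept through the DAC library alone. Of the 112 with at least 1 FPKM untreated, 13.4% were at least 2-fold higher and 7.14% lower, at a median of -0.03.

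The deposited values leave a shift over all genes, and it bears on how many histone genes pass 2-fold. Over all kept genes the deposited values had a median log2 difference of 0.19. Scaling by the median of ratios made it -0.06, and scaling by the upper quartile -0.08. For the kept members it was 1.04 as deposited and 0.82 and 0.81 under these scalings. The members then had 12 and 11 at least 2-fold higher and 2 lower under each, against 7.87% and 7.68% of all genes higher and 3.3% and 3.52% lower. The low members also depend on the filter and the pseudocount. With no filter the same counts of 19 and 1 stand against 5.18% and 0.72% of all genes, and with a filter of 5 FPKM 16 and 0 members stand against 7.04% and 1.38%. With a pseudocount of 0.1, 24 members were at least 2-fold higher and 2 lower, against 16.5% and 2.72% of all genes, and with a pseudocount of 5, 9 and 0, against 2.01% and 0.384%. Over genes with a mean of at least 1 FPKM, 16 members were at least 2-fold higher and 0 lower, against 8.41% and 1.23%. By counting error alone, 29 members had an interval of the ratio wholly above 1 and 3 wholly below it, against 51.8% and 22.6% of all genes.

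**Figure D1:**
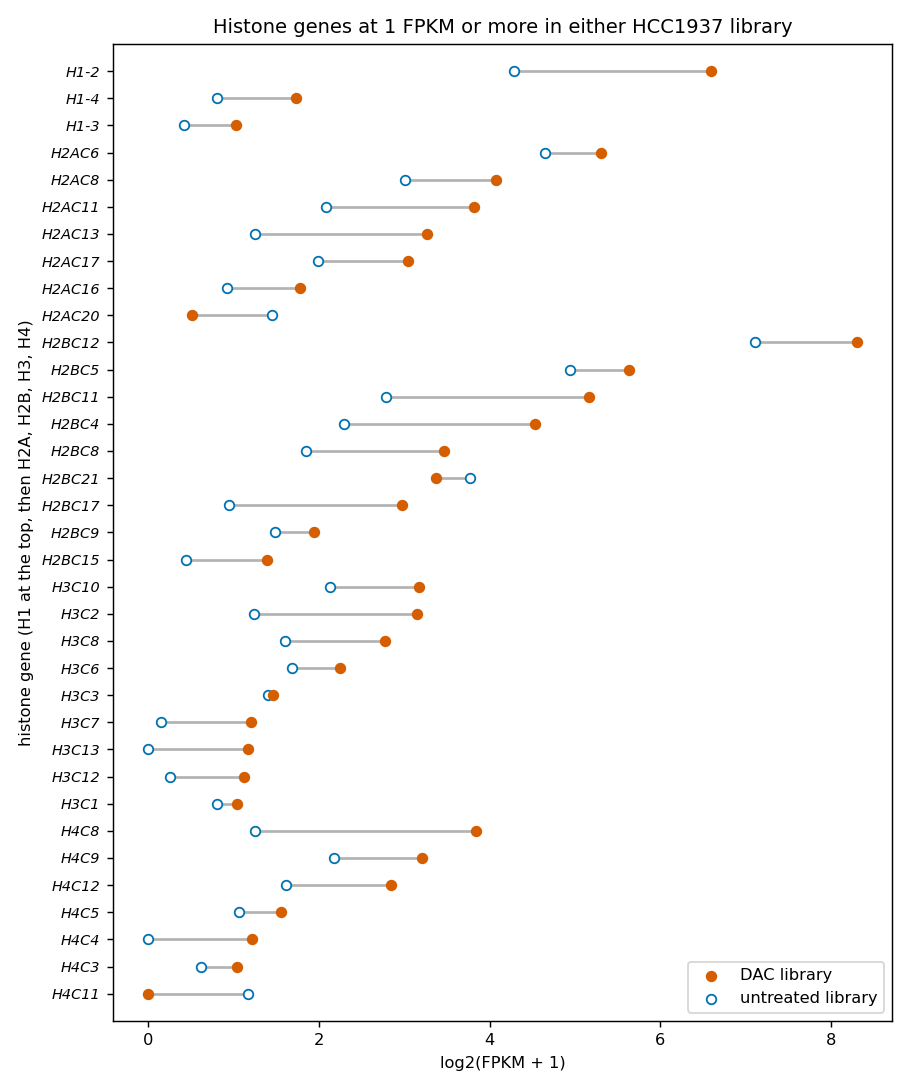
Level of the 35 histone genes at 1 FPKM or more in either HCC1937 library, as log2(FPKM + 1), with the DAC library as filled and the untreated library as open circles and each gene on its own row. The filled circle lies to the right in 32 genes and to the left in H2AC20, H2BC21 and H4C11.

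Linker histones were led by H1-2. H1-2 (ENSG00000187837, chr6:26055740-26056470, an intronless gene) stood at 95.99 FPKM with DAC and 18.5 FPKM untreated, a ratio of 5.19 with a 95% counting interval of 4.53 to 5.96 from 1314 and 253 reads. It was the second highest member in the DAC library, after H2BC12. H1-4, another somatic linker histone, stood at 2.31 FPKM with DAC and 0.75 FPKM untreated, and its counting interval of 1.53 to 6.75 lay above 1. H1-3 stood at 1.03 FPKM with DAC and 0.34 FPKM untreated. Both H1-4 and H1-3 were kept through the DAC library alone, which fixes their direction. H1-5 was at 0.60 FPKM with DAC and 0.80 FPKM untreated, a difference within counting error, from 9 and 12 reads. H1-1 was listed at 0 in both, and H1-6, the linker histone of the testis, stood at 0.30 FPKM with DAC and was listed at 0 untreated. The 6 H1 genes summed to 100.2 FPKM with DAC and 20.4 FPKM untreated, the largest ratio of the 5 histone types at 4.92, and nearly all of it was H1-2. Intervals here cover counting error only, and reads come from the spacing of the FPKM values.

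H2B genes held most of the measured histone mRNA. The 17 genes summed to 455.2 FPKM with DAC and 196.5 FPKM untreated, which is 64.2% and 69.2% of all members. H2BC12 (chr6:27138293-27146858) stood at 315.9 FPKM with DAC and 137.5 FPKM untreated, a log2 difference of 1.19 that dropped to 0.91 and 0.88, below 2-fold, under the median-of-ratios scaling and the upper-quartile one. Its exon length in the authors' annotation is not known here, so no read number is given. H2BC11 stood at 34.8 FPKM with DAC and 5.88 FPKM untreated (log2 2.38). H2BC4 stood at 22.2 FPKM with DAC and 3.91 FPKM untreated, and its interval of 4.31 to 7.57 rests on 346 and 61 reads. These genes code for nearly the same protein but differed widely in size of change. H2BC8 stood at 10.1 FPKM with DAC and 2.61 FPKM untreated. H2BC17 stood at 6.86 FPKM with DAC and 0.92 FPKM untreated. By contrast, H2BC5, the second highest H2B gene, stood at 48.6 FPKM with DAC and 29.8 FPKM untreated, a log2 difference of 0.69. H2BC9 (2.85 FPKM with DAC, 1.79 FPKM untreated) and H2BC15 (1.63 FPKM with DAC, 0.36 FPKM untreated) had log2 differences of 0.46 and 0.95, below 2-fold on log2(FPKM + 1), although the plain ratio of the low values of H2BC15 was 4.53. H2BC21, on chromosome 1, went the other way, at 9.39 FPKM with DAC and 12.6 FPKM untreated. In all, 5 of 9 kept H2B genes were at least 2-fold higher and 0 lower, against 10.3% and 1.44% of all kept genes. H2BC17, among the 5, and H2BC15 were kept through the DAC library alone, which fixes their direction.

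H2A genes shared the direction, with 4 of 7 kept genes at least 2-fold higher and 0 lower, against 10.3% and 1.44% of all kept genes. Their sum was 87.7 FPKM with DAC and 44.3 FPKM untreated, a ratio of 1.98, the smallest of the 5 types. H2AC6, the highest, stood at 38.5 FPKM with DAC and 24.1 FPKM untreated (log2 0.65). H2AC11 stood at 13.1 FPKM with DAC and 3.23 FPKM untreated (log2 1.74), and H2AC13 at 8.60 FPKM with DAC and 1.38 FPKM untreated (log2 2.01). H2AC8 (15.8 FPKM with DAC, 7.04 FPKM untreated) and H2AC17 (7.24 FPKM with DAC, 2.96 FPKM untreated) lay just past 2-fold, at log2 1.07 and 1.06, and were below it under both scalings. H2AC16 stood at 2.44 FPKM with DAC and 0.89 FPKM untreated, and was kept through the DAC library alone, which fixes its direction. H2AC20, on chromosome 1, was lower, at 0.43 FPKM with DAC and 1.73 FPKM untreated, from 4 and 16 reads. It was kept through the untreated library alone, which likewise fixes its direction. Its log2 difference of -0.93 passed 2-fold under both scalings, at -1.07 and -1.08.

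H3 and H4 genes were lower in level and similar in direction. The 13 H3 genes summed to 32.7 FPKM with DAC and 12.3 FPKM untreated, a ratio of 2.66. H3C2 stood at 7.84 FPKM with DAC and 1.36 FPKM untreated, a ratio of 5.76 with an interval of 3.17 to 11.3. H3C10 (7.99 FPKM with DAC, 3.37 FPKM untreated) and H3C8 (5.85 FPKM with DAC, 2.04 FPKM untreated) were past 2-fold as deposited and below it under both scalings. H3C7 stood at 1.30 FPKM with DAC and 0.11 FPKM untreated, which is 12 reads and 1 read, and was below 2-fold under both scalings. H3C13, on chromosome 1, stood at 1.25 FPKM with DAC and was listed at 0 untreated. H3C6 (3.73 FPKM with DAC, 2.20 FPKM untreated), H3C12 (1.18 FPKM with DAC, 0.19 FPKM untreated) and H3C1 (1.05 FPKM with DAC, 0.74 FPKM untreated) were below 2-fold on log2(FPKM + 1), although the plain ratio of the low values of H3C12 was 6.21. H3C3 was almost level, at 1.76 FPKM with DAC and 1.65 FPKM untreated. In all, 5 of 9 kept H3 genes were at least 2-fold higher, against 10.3% of all kept genes. H3C7 and H3C13, among the 5, and H3C1 and H3C12 were kept through the DAC library alone, which fixes their direction.

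The 14 H4 genes, which code for the same or nearly the same protein, summed to 33.1 FPKM with DAC and 10.5 FPKM untreated, a ratio of 3.16. H4C8 had the largest log2 difference of all members, 2.59, at 13.3 FPKM with DAC and 1.38 FPKM untreated. H4C9 stood at 8.25 FPKM with DAC and 3.51 FPKM untreated, below 2-fold under both scalings. H4C12 stood at 6.21 FPKM with DAC and 2.07 FPKM untreated, from 45 and 15 reads, below 2-fold under upper-quartile scaling. H4C4 stood at 1.33 FPKM with DAC, or 10 reads, and was listed at 0 untreated. H4C5 (1.94 FPKM with DAC, 1.08 FPKM untreated) and H4C3 (1.05 FPKM with DAC, 0.53 FPKM untreated) had log2 differences of 0.50 and 0.42. H4C11 was the 1 member of the 35 at least 2-fold lower as deposited, listed at 0 with DAC and at 1.24 FPKM, or 9 reads, untreated. Of the 7 kept H4 genes, 4 were at least 2-fold higher and 1 lower, against 10.3% and 1.44% of all kept genes. H4C4, among the 4, and H4C3 were kept through the DAC library alone. H4C11 was kept through the untreated library alone. In both cases the filter fixes the direction. In GENCODE 29 transcripts, the 50-base words of H4C12 are all found in another histone gene, and 81.2% of those of H4C11 are. The split of reads between such copies is therefore uncertain. The H4C12 exons there hold 312 bases against 387 in RefSeq, and the remainder was not searched.

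The remaining 31 members stayed below 1 FPKM in both libraries. Of these, 8 were listed at 0 in both, 15 had a higher value with DAC and 8 a lower one. Over all genes above 0 in at least 1 library, 68.8% had a higher value.

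**Figure D2:**
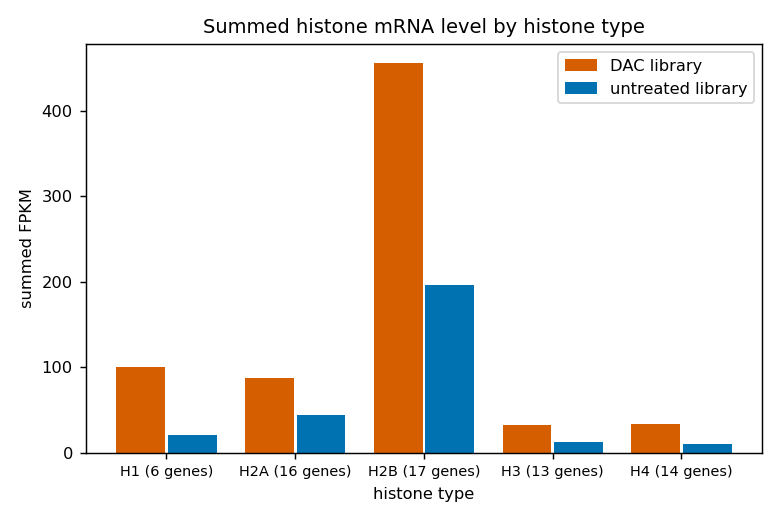
Summed FPKM of the 6 H1, 16 H2A, 17 H2B, 13 H3 and 14 H4 genes, with the DAC library left of the untreated library in each pair of bars. H2B makes up the largest sum in both libraries, and each type is higher with DAC.

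The summed levels on chromosome 6 and chromosome 1 differed in direction in these libraries, which was not tested. The 55 genes on chromosome 6 summed to 696.7 FPKM with DAC and 268.0 FPKM untreated, a ratio of 2.60. Of 32 kept genes there, 18 were at least 2-fold higher and 1 lower, against 10.3% and 1.44% of all kept genes. These 32 hold all but H3C13 of the 11 members kept through the DAC library alone, whose direction the filter fixes. The 11 genes on chromosome 1 summed to 12.3 FPKM with DAC and 15.9 FPKM untreated, a ratio of 0.77. H2BC21 and H2AC20, neighbours that share an upstream region there, were both lower, and H3C13 was higher on few reads. The filter fixes the direction of H2AC20 and of H3C13. With 3 kept genes on chromosome 1 the difference between the chromosomes rests mainly on H2BC21. The median share of 50-base words also found in another histone gene was 80.4% on chromosome 1 and 0% on chromosome 6. For the genes named it was 8.11% in H2BC21, 30.5% in H2AC20 and 80.4% in H3C13.

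**Figure D3:**
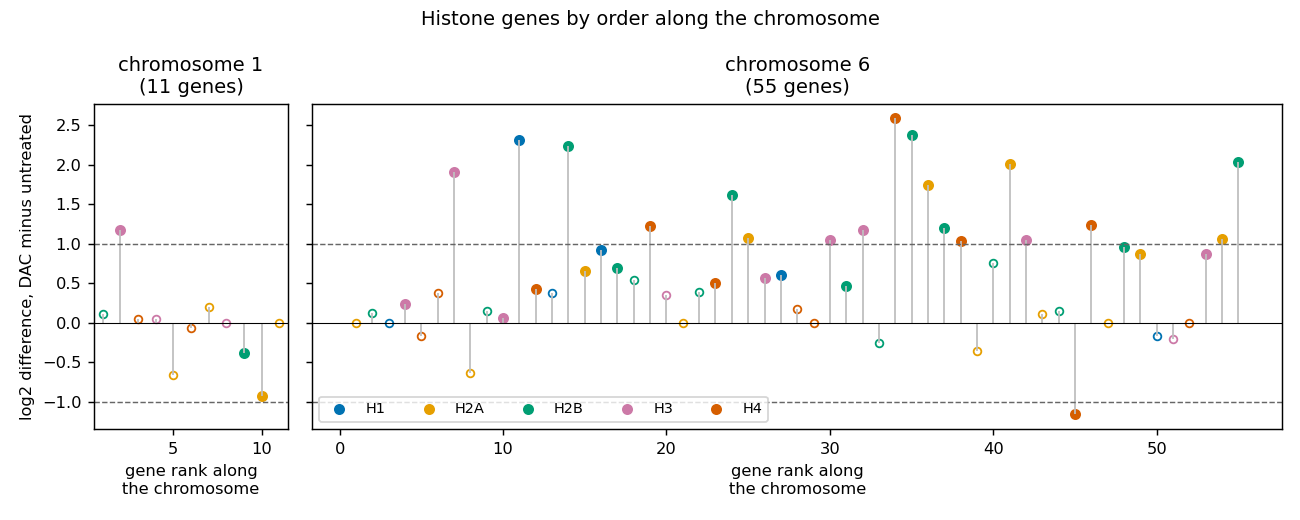
Log2 difference (DAC minus untreated, on log2(FPKM + 1)) of each histone gene by its rank along chromosome 1 and chromosome 6, coloured by histone type, with open circles for genes below 1 FPKM in both libraries and dashed lines at 2-fold. Differences past 2-fold are spread along chromosome 6 among genes with little or no value, while H2BC21 and H2AC20 on chromosome 1 lie below 0.

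Head-to-head H2A and H2B genes, whose start sites lie 194 to 248 bases apart, did not always change equally. Of 11 such pairs, 3 had both genes at least 2-fold higher, 3 had 1 gene higher by that rule, and 5 had neither. The 10.3% of all kept genes at least 2-fold higher is a share of single genes, and gives no background for pairs. Under both scalings 1 pair had both, H2BC11 with H2AC11, 4 had 1 gene and 6 had neither. As deposited, the pairs with both were H2BC8 with H2AC8, H2BC11 with H2AC11, and H2BC17 with H2AC17. Besides these 3 pairs, both genes were kept only in H2BC4 with H2AC6 and in H2BC21 with H2AC20. A pair with a gene below 1 FPKM in both libraries could not count as both higher, so the filter limits these counts. H2BC12, the highest member, faces H2AC12, which stood at 0.23 FPKM with DAC and 0.58 FPKM untreated. H2BC4 was 5.67-fold higher with DAC, and its partner H2AC6 was 1.60-fold higher. The H2B gene had the more positive log2 difference in 10 of the 11 pairs, the exception being H2BC13 (0.88 FPKM with DAC, 0.11 FPKM untreated) with H2AC13. Several of these differences lie between low values. H2AC1, H2AC7 and H2AC15 were listed at 0 in both libraries, so any rise of their H2B partners set the order in those pairs.

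Members were also split by the length of their annotated span, at a limit chosen after the values were seen. A gene was taken as having a long model where its span in GENCODE 29 or RefSeq, introns included, reaches 1000 bases. Of 25 such genes, 17 were kept and 9 were at least 2-fold higher with 0 lower, at a median log2 difference of 1.04. Of 41 genes with short models, 18 were kept and 10 were at least 2-fold higher with 1 lower, at a median of 1.05. Over all kept genes 10.3% were at least 2-fold higher and 1.44% lower. The filter bore on the groups unequally, since 2 of the 17 long-model genes and 9 of the 18 short-model genes passed through the DAC library alone, which fixes their direction. At 1 FPKM or more untreated, 9 of 15 long-model genes were at least 2-fold higher and 0 lower. Of 9 short-model genes at that level, 6 were higher and 1 lower. Over all genes at that untreated level the shares were 3.87% higher and 1.7% lower. Genes with long models held 76.4% of the summed level with DAC and 83.3% untreated. A long span does not mean a long mRNA. The GENCODE 29 exons of H2BC12, H2BC11, H2BC5 and H2BC4, all with long models, hold 381, 950, 871 and 834 bases. Leaving out H2BC12 and H1-2, the highest of each group, the sums were 225.6 FPKM with DAC and 99.0 FPKM untreated for long models and 71.5 FPKM with DAC and 28.9 FPKM untreated for short ones. FPKM is divided by exon length, so a gene whose annotated exons are longer than its mRNA is given too low a level. The plain ratio does not depend on that length, but the difference on log2(FPKM + 1), and so the filter, the calls and the medians, do.

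Sequence sharing among copies touched some of the calls. At least 50% of the 50-base words of H2BC12, H2AC13, H2AC17, H3C13, H4C11 and H4C12 are found in another histone gene. The words come from GENCODE 29 transcripts, which can be shorter than the RefSeq gene, as in H3C13 (411 against 469 bases) and H2AC17 (393 against 487). The shares therefore cover the annotated part only. Without genes of that kind, and without those not in GENCODE 29, 27 kept members were left, at a median log2 difference of 0.95. Of these, 13 were at least 2-fold higher, against 10.3% of all kept genes. H2BC17, H3C7 and H4C4, among the 13, were kept through the DAC library alone, which fixes their direction. The same holds for H1-3, H1-4, H2AC16, H2BC15, H3C1, H3C12 and H4C3, which were not called but enter the median. H2AC20, also in the median, was kept through the untreated library alone.

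**Figure D4:**
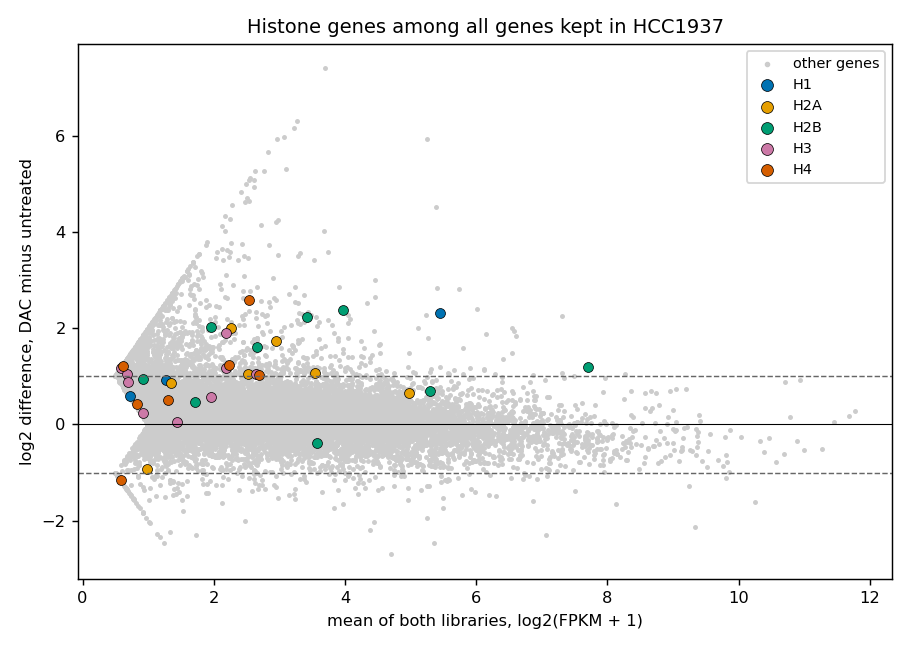
Log2 difference (DAC minus untreated) against the mean of both libraries on log2(FPKM + 1) for all kept HCC1937 genes in grey and the 35 kept histone genes coloured by type, with dashed lines at 2-fold. Of the histone genes, 19 lie on or above the upper line and 1 below the lower line, against 10.3% and 1.44% of all kept genes.

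Histone genes that are not tied to replication, most of which make polyadenylated mRNA in every phase of the cell cycle, did not share the shift. Of 13 kept, 2 (15.4%) were at least 2-fold higher, against 10.3% of all kept genes, and 0 were lower. Both of the higher ones were kept through the DAC library alone. The median log2 difference of the list was 0.02, and its sum was 757.2 FPKM with DAC and 819.9 FPKM untreated. H2AZ1, a variant placed at promoters, stood at 202.0 FPKM with DAC and 230.8 FPKM untreated. H2AX, the variant phosphorylated at DNA breaks, stood at 173.2 FPKM with DAC and 205.5 FPKM untreated. H3-3B, one of the genes for H3.3, stood at 80.6 FPKM with DAC and 79.6 FPKM untreated, and H3-3A at 2.37 FPKM with DAC and 2.39 FPKM untreated. H2AJ was lowest relative to untreated, at 25.0 FPKM with DAC and 49.7 FPKM untreated. Under both scalings 1 of the 13 was at least 2-fold lower, against 3.3% and 3.52% of all genes. The pair past 2-fold were H2AB1, a variant of the testis, at 4.37 FPKM with DAC and listed at 0 untreated, and H1-8, the linker histone of the oocyte, at 2.79 FPKM with DAC and 0.08 FPKM untreated. MACROH2A1 stood at 29.95 FPKM with DAC and 18.96 FPKM untreated.

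Histone genes of the replication type that lie under other symbols went both ways. H2AW stood at 48.8 FPKM with DAC and 63.7 FPKM untreated. H3-4, the H3 gene of the testis, stood at 1.66 FPKM with DAC and was listed at 0 untreated. H4-16 (1.39 FPKM with DAC, 0.46 FPKM untreated) and H2BU1 (1.56 FPKM with DAC, 1.27 FPKM untreated) were low. Of 4 kept, 1 was at least 2-fold higher, against 10.3% of all kept genes. That gene, H3-4, was kept through the DAC library alone.

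Of 25 kept genes for factors that transcribe and process histone mRNA, 0 passed 2-fold in either direction, where 10.3% of all kept genes were higher. Of these, 19 (76.0%) had a higher value with DAC and 6 a lower one, against 68.8% higher over all genes above 0. Their median log2 difference was 0.36, against 0.19 over all kept genes, and 0.11 and 0.10 under the scalings. SLBP, which binds the stem-loop, stood at 53.5 FPKM with DAC and 31.5 FPKM untreated (log2 0.75). NPAT, the coactivator of histone genes, stood at 2.27 FPKM with DAC and 1.38 FPKM untreated, and CASP8AP2, which acts with it at histone locus bodies, at 3.51 FPKM with DAC and 1.99 FPKM untreated. ZNF473, which acts in histone mRNA 3′ end processing, had the largest difference, at 4.65 FPKM with DAC and 2.01 FPKM untreated. ERI1, an exonuclease that trims histone mRNA ends, stood at 3.75 FPKM with DAC and 1.73 FPKM untreated. CRAMP1 stood at 3.70 FPKM with DAC and 2.08 FPKM untreated. MIF4GD, which acts in the translation of histone mRNA, had the lowest log2 difference of the list, -0.57, at 11.5 FPKM with DAC and 17.6 FPKM untreated.

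Histone chaperones, which carry new histones to DNA, had a median log2 difference of 0.25 over 23 kept genes, and 0.00 and -0.02 under the scalings. As deposited 0 of the 23 passed 2-fold, where 10.3% of all kept genes were at least 2-fold higher. The largest difference was in ASF1B, which hands H3-H4 to assembly factors in dividing cells, at 136.7 FPKM with DAC and 79.5 FPKM untreated. RBBP4 stood at 22.7 FPKM with DAC and 13.4 FPKM untreated, UBN1 at 14.5 FPKM with DAC and 9.32 FPKM untreated, and HAT1, which acetylates new H4, at 8.50 FPKM with DAC and 5.48 FPKM untreated.

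Of 35 kept S phase genes, 33 had a higher value with DAC and 1 a lower one, where 68.8% of all genes above 0 had a higher one. At least 2-fold higher were 2 of the 35, or 5.71%, against 10.3% of all kept genes, and 0 were lower. Their median log2 difference was 0.43, against 0.19 over all kept genes, and under the scalings it was 0.20 and 0.18 with 0 past 2-fold. Over all genes 7.87% and 7.68% were at least 2-fold higher under the scalings. UNG, which removes uracil from DNA, stood at 88.4 FPKM with DAC and 38.9 FPKM untreated. DSCC1, a cohesion and clamp loading factor, stood at 17.4 FPKM with DAC and 8.19 FPKM untreated. CLSPN, a checkpoint mediator, stood at 6.44 FPKM with DAC and 2.82 FPKM untreated, and CDC6, which licenses origins, at 35.1 FPKM with DAC and 17.7 FPKM untreated. CCNE2, a cyclin of S phase entry, stood at 7.17 FPKM with DAC and 4.75 FPKM untreated, and PCNA, the replication clamp, at 350.9 FPKM with DAC and 304.3 FPKM untreated. Over the 20 kept G2/M genes 0 reached 2-fold and the median was 0.13, and -0.14 and -0.17 under the scalings. The part of the S phase values in the histone result was not tested.

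RNA types other than polyadenylated mRNA were examined because most histone mRNAs belong to them. Of 25 small RNAs without poly(A) in the table, 14 were listed at 0 in both libraries and 7 were kept, with 0 past 2-fold. Their median log2 difference was -0.37 and their sum was 30.3 FPKM with DAC and 37.7 FPKM untreated. The filter fixes most of that direction, since 4 of the 7 passed through the untreated library alone and 1 through the DAC library alone. RN7SL1, at 18.04 FPKM with DAC and 21.81 FPKM untreated, and SNORD17, at 8.79 FPKM with DAC and 8.35 FPKM untreated, were the 2 that reached 1 FPKM in both. Among them, SCARNA10 stood at 0.32 FPKM with DAC and 1.30 FPKM untreated, and SNORD3A at 0.38 FPKM with DAC and 1.38 FPKM untreated. SCARNA12 stood at 0.79 FPKM with DAC and 1.39 FPKM untreated, SCARNA21 was higher, at 1.15 FPKM with DAC and 0.38 FPKM untreated, and RN7SK was listed at 0 in both. The 13 mitochondrial mRNAs, most of which carry short poly(A) tails, all had a higher value, where 68.8% of all genes above 0 did. As deposited 2 (15.4%) were past 2-fold, against 10.3% of all kept genes higher, and under both scalings 0 were, against 7.87% and 7.68%. The median of the 13 was 0.74, and their sum was 9534 FPKM with DAC and 5341 FPKM untreated. Whether the selection of poly(A) RNA differed between the libraries was not tested.

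Genes without histone function that lie inside the histone clusters were set beside them. Of 12 kept, 0 passed 2-fold in either direction, at a median log2 difference of -0.25, with 4 higher and 8 lower in value. Of all kept genes 10.3% were at least 2-fold higher and 1.44% lower, and 68.8% of all genes above 0 had a higher value. BTN3A1, a butyrophilin, stood at 3.37 FPKM with DAC and 6.86 FPKM untreated. HFE, a regulator of iron uptake, stood at 1.66 FPKM with DAC and 3.64 FPKM untreated. PRSS16 stood at 3.04 FPKM with DAC and 5.13 FPKM untreated, and ABT1 at 14.6 FPKM with DAC and 22.4 FPKM untreated. Under both scalings 2 of the 12 were at least 2-fold lower and 0 higher. Over all genes 3.3% and 3.52% were then lower and 7.87% and 7.68% higher.

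**Figure D5:**
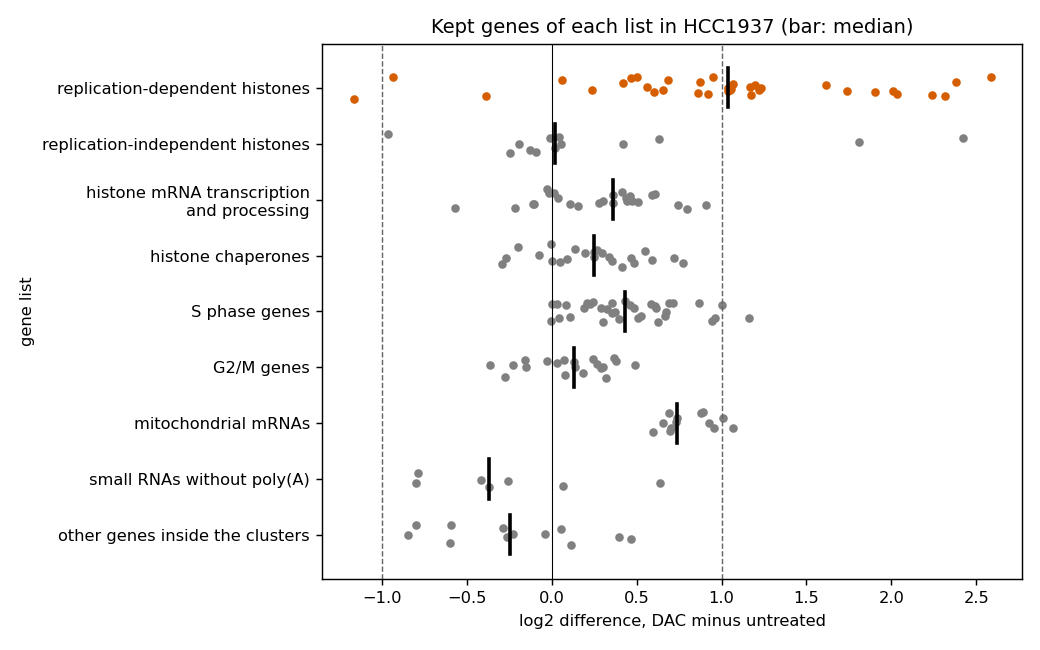
Log2 difference (DAC minus untreated, on log2(FPKM + 1)) of each kept gene by list, with a bar at the median and dashed lines at 2-fold. The median is 1.04 for the replication-dependent histones and lies between -0.37 and 0.74 for the 8 other lists. The lowest is that of the small RNAs, whose direction the filter largely fixes.

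The libraries carried the markers of their label. All 15 epithelial and basal markers reached 1 FPKM in both libraries. Of 12 myeloid markers, 3 reached it with DAC and 1 untreated, and their sum was 11.97 FPKM with DAC and 9.81 FPKM untreated. The spacing of the values gives 18.7 M counted reads in each library.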

How the data were processed

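RNA was sequenced in 4 libraries, of which the 2 of HCC1937 were used. The submitters' processing notes name FastQC, cutadapt, STAR, HTSeq and the build hg38. Their versions, the annotation and the strand setting are not given in the sources used here. No unit is stated for the deposited table. FPKM, as made by the authors, was inferred because value times exon length of short genes (50 to 250 bases, GENCODE 29) lies within 0.1 of a whole read in 99.6% (DAC) and 100% (untreated) of them.

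Lines of 76 repeated symbols (1079 lines) were left out. The members and lists were chosen with earlier results of these data known. Genes were kept at 1 FPKM in at least 1 library and called at 2-fold on log2(FPKM + 1). The naming rule took all kept members, up to 4 genes of each other list by size of difference, and set genes such as SLBP and PCNA. A gene that the rule takes is not reported here. H1-1, H1-5, H1-6, H2AC1, H2AC7, H2AC12, H2AC15, H2BC13, MIF4GD, RN7SL1 and SNORD17 were named after their values were seen. For 20 of the 35 kept members an exon length made both values whole reads, and these have exact Clopper-Pearson 95% intervals. For the others reads are approximate. Locations are from RefSeq (GRCh38.p14), which held all 66, with 62 in GENCODE 29. The steps were tested on simulated data. The analysis ran in Python 3.11.15 with scipy 1.17.1, numpy 2.4.6, pandas 2.3.3 and, for figures, matplotlib 3.10.9.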

Additional observations from a re-analysis of the deposited data

How the results depend on the processing

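The direction of the summed level and of the median held under every alternative run. The ratio of summed levels was 2.50, and it was 2.05 and 2.01 with median-of-ratios scaling and with upper-quartile scaling, 2.68 without H2BC12 and 2.32 without H2BC12 and H1-2. The median log2 difference of members was 1.04. It was 0.82 and 0.81 under these scalings, 0.52 with no filter, 1.23 with a filter of 5 FPKM, 1.36 and 0.58 with pseudocounts of 0.1 and 5, and 1.06 over members with a mean of at least 1 FPKM. Members at least 2-fold higher numbered 19, against 12 and 11 under the scalings, 9 with a pseudocount of 5, and 29 whose counting interval lay wholly above 1, a rule met by 51.8% of all genes. Members at least 2-fold lower numbered 1, against 2 under each scaling and with a pseudocount of 0.1, 3 whose interval lay wholly below 1, and 0 with a filter of 5 FPKM, a pseudocount of 5, a mean of at least 1 FPKM, or without members listed at 0 in 1 library. The last 2 alternatives and the sum without H2BC12 and H1-2 were chosen after seeing the data. H2AC8, H2AC17, H2BC12, H3C7, H3C8, H3C10 and H4C9 dropped below 2-fold under both scalings, and H4C12 under upper-quartile scaling. No paired analysis was possible because each group has 1 library. The cause of these differences was not tested. The depth sets wide limits for members below about 1 FPKM, where a few reads decide the value.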
